A study of Mus musculus with 6 samples.

Results

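The epidermal connexins Gja1, Gjb2, Gjb5 and Gjb6 were followed in mouse skin at embryonic day 16.5, in 3 samples labelled Tcfap2c mutant and 3 labelled control. Every probe set that the platform annotation assigns to exactly 1 of these symbols was taken, which gave 6 probe sets for Gja1 and 1 each for Gjb2, Gjb5 and Gjb6, or 9 probe sets of 4 genes among 18193 named genes on the array. RNA of each sample was hybridised to 1 Affymetrix array, and the values are MAS5 signals, a linear measure of brightness per probe set in which every array has the same trimmed mean. The mutated gene, called Tfap2c today, makes the transcription factor AP-2 gamma of surface ectoderm and epidermis. The labels give the mutation without naming the allele, any Cre driver or the strain, and the description field of the control samples carries the mutant wording too. Nothing in them ties a sample to a litter, so the p-values describe the scatter of these arrays, part of which may be technical.

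Connexins are membrane proteins whose rings, or hemichannels, dock between neighbouring cells and form gap junctions, through which ions and small metabolites pass. In epidermis, different connexins are made in different layers and follow keratinocyte differentiation. Gja1 is the most widely expressed connexin of skin, made by basal and spinous keratinocytes and also by fibroblasts, vascular cells and smooth muscle. Gjb2 and Gjb6 encode closely related beta connexins of epidermis, hair follicle and inner ear, and mutations of the human genes cause deafness and disorders of keratinization. Gjb5 encodes a beta connexin of mouse stratified epithelia and trophoblast.

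The promoters are shown because AP-2 proteins bind a GC-rich palindrome, and because the 4 genes differ in what lies upstream of their starts. The sequences are the 250 bases before each annotated start, from RefSeq on build GRCm38.p6, and all 4 genes matched by symbol. They are chr10:56377050-56377299 on the plus strand for Gja1, chr14:57104703-57104952 on the minus strand for Gjb2, chr4:127358165-127358414 on the minus strand for Gjb5 and chr14:57133612-57133861 on the minus strand for Gjb6. Each is written 5′ to 3′ in the direction of transcription, and capitals mark the motif matches named after the sequences.
Gja1: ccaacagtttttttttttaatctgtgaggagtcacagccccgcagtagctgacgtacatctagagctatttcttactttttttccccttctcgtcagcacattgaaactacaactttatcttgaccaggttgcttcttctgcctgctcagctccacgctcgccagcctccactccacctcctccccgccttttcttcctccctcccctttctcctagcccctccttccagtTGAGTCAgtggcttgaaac
Gjb2: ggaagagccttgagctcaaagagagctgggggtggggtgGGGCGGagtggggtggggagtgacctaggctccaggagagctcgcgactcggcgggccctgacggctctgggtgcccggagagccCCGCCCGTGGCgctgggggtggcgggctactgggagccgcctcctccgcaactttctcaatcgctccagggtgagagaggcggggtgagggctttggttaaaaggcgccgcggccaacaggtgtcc
Gjb5: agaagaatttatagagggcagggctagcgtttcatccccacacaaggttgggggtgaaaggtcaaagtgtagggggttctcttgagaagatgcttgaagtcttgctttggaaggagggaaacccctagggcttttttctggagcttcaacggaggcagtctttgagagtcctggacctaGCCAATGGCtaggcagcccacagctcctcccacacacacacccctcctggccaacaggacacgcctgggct
Gjb6: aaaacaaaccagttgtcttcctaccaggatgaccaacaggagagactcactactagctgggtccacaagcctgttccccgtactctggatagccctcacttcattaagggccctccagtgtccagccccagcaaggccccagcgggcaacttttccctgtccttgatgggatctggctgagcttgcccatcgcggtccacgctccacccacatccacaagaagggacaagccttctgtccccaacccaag

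Both strands were searched for the AP-2 palindrome as GCCNNNGGC, for the GC box of Sp1 as GGGCGG and for the AP-1 site as TGANTCA. The AP-2 letters were found once in Gjb2 (GCCCGTGGC, beginning 124 bases before the start) and once in Gjb5 (GCCAATGGC, beginning 71 bases before the start). In Gjb2 it overlaps a reverse-strand GC box, and a further GC box begins 211 bases before the start. Gja1 held an AP-1 match beginning 19 bases before the start. Gjb6 held none of these motifs in this window. Of 32851 promoter windows of the same length, 13.7% held GCCNNNGGC, 32.7% GGGCGG and 6.75% TGANTCA. The GC content was 69.2% for Gjb2, 56.8% for Gjb6, 54.4% for Gjb5 and 50% for Gja1, against a median of 52.4% over all windows. These matches describe the sequence and are not measured binding sites. In the RefSeq table Gjb2, Gjb6 and Gja3 lie on chromosome 14 as neighbouring connexin genes, Gjb5 and Gja4 on chromosome 4, and Gja1 on chromosome 10.

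1 library stood apart from the others, and this bears on the results that follow. Mutant sample 1 had a mean correlation of 0.94 with the other arrays, against 0.961 to 0.97 for each of the others. In that sample the summed signal of 6 measured decidua, uterus and trophoblast markers was 47352, against 187.1 to 618.2 in the other 5, and 4 of the 6 genes were highest there. That of 7 smooth muscle markers was 63873, against 7344 to 9999, with all 7 genes highest there. Its basal keratinocyte sum (8 genes) was 37305, against 55853 to 68520, with 6 of 8 genes lowest there. Over all 22518 probe sets tested, 31% were lowest and 24.5% highest in mutant sample 1. The suprabasal sum (8 genes, 156681, against 147590 to 193862) and the dermal fibroblast sum (8 genes, 136805, against 129487 to 147391) lay within the range of the other samples. So did the granular and cornified layer, skeletal muscle, melanocyte and Schwann cell sums. The endothelium sum (7 genes, 3632, against 4289 to 5027) lay below that range. The leukocyte sum (6 genes, 12012, against 6551 to 8296) and the adipocyte sum (4 genes, 22322, against 12543 to 15827) lay above it. Median signals per array were 110.4 to 131.5. Precision is limited by the number of arrays. 9 Y-linked probe sets, read in the 3 arrays with high Xist as a measure of background, had a median signal of 6.35 and at most 42.5. These arrays were mutant sample 1 and control samples 1 and 2. By this pattern sex was uneven between mutant and control samples, and the fits did not account for it. In the fits without mutant sample 1, no mutant sample had high Xist. The part of sex in the differences was not tested.

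**Figure D1:**
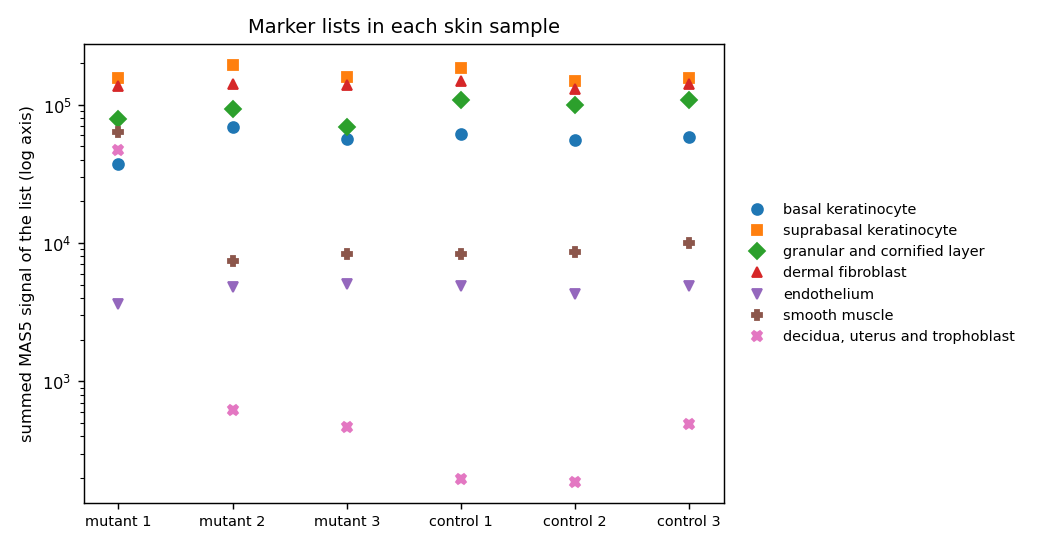
Summed MAS5 signal (log axis) of each marker list in each of the 6 skin samples, 1 symbol per list, counting 1 probe set per gene. Mutant sample 1 lies at 47352 for the decidua, uterus and trophoblast list and 63873 for smooth muscle, and lowest of the 6 for the basal keratinocyte list at 37305.

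The comparison of mutant with control skin asked whether connexin transcripts differ when Tcfap2c is mutated. No connexin of the 4 differed beyond the spread between samples. All 9 probe sets passed the filter on low signal, 0 of 9 passed an adjusted p of 0.05 in limma, and 0 of 9 passed an unadjusted p of 0.05. Over all 22518 probe sets tested, 0.00444% passed the adjusted threshold (1 probe set) and 3.42% the unadjusted one. Mutant and control signals overlapped for all 9, where 8.33% of all probe sets tested did not overlap. 6 of the 9 differences were negative and 3 positive, and their median was -0.071 (log2), while 55.6% of all probe sets were negative with a median of -0.025. Since 6 probe sets belong to Gja1, these counts are not independent. The estimates are on the log2(signal + 24.48) scale, and what they leave possible differs from gene to gene.

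Gja1 had the tightest estimate. Its brightest probe set, 1437992_x_at, gave signals of 20987, 21972 and 20847 in mutant samples 1, 2 and 3, against 21919, 19211 and 21856 in control samples 1, 2 and 3. The lowest of the 6 was control sample 2, and mutant values fell within the control range apart from mutant sample 2, which was just above it. It averaged 21268 ± 613 over the mutant and 20996 ± 1546 over the control samples (SD, n = 3 each). This is a log2 difference of 0.02 (SE 0.10) with a limma p of 0.84, adjusted to 1. The 95% interval of the fold ran from 0.866 to 1.19. Whether so bright a signal was saturated could not be read from these values.

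The remaining Gja1 probe sets did not all give that precision. Signals of 1415800_at were 16319, 15468 and 16309 in mutant samples 1, 2 and 3 and 18058, 16280 and 16238 in control samples 1, 2 and 3, a difference of -0.07. The probe sets 1438945_x_at and 1438650_x_at differed by -0.07 and 0.02, and both averaged 11334 or more in each group. In these bright probe sets the groups lay together, with a standard deviation of 2.88% to 18.6% of the mean within a group. Names ending in _x_at mark probe sets that may also bind other transcripts.

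A dimmer Gja1 probe set, 1415801_at, spread widely within the mutant group. Its signal was 1239 in mutant sample 1 and 5282 and 5288 in mutant samples 2 and 3, against 3586, 3081 and 4612 in control samples 1, 2 and 3. Mutant sample 1 lay below every other sample, at 26.9% of their median, while mutant samples 2 and 3 lay above every control sample. With all 6 arrays the difference was -0.18 (95% interval -1.29 to 0.92). Without mutant sample 1 it was 0.51 (0.16 to 0.86), with an unadjusted limma p of 0.00931 and an adjusted p of 0.501, and 7.14% of all probe sets then passed the unadjusted threshold. It was the 1 member probe set of 9 that passed the unadjusted threshold in that fit, and none passed the adjusted one. The bright Gja1 probe sets do not share so low a value: in mutant sample 1 they read 89.4% to 119% of the median of the other samples. Of these, 1438945_x_at was also lowest in mutant sample 1, at 10579 against 11141 to 12631 in the others. Why probe sets of 1 gene disagree in that sample was not tested.

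The dimmest, 1438973_x_at, ran from 249.9 to 651.8 in mutant and from 64.32 to 930.9 in control samples. Its standard deviation was 47.9% of the mean in mutant and 95.3% in control samples, and its log2 difference was 0.37 with an interval of -1.29 to 2.03. An interval this wide says little about Gja1. Without control sample 2, its lowest sample, the sign turned (-0.57).

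**Figure D2:**
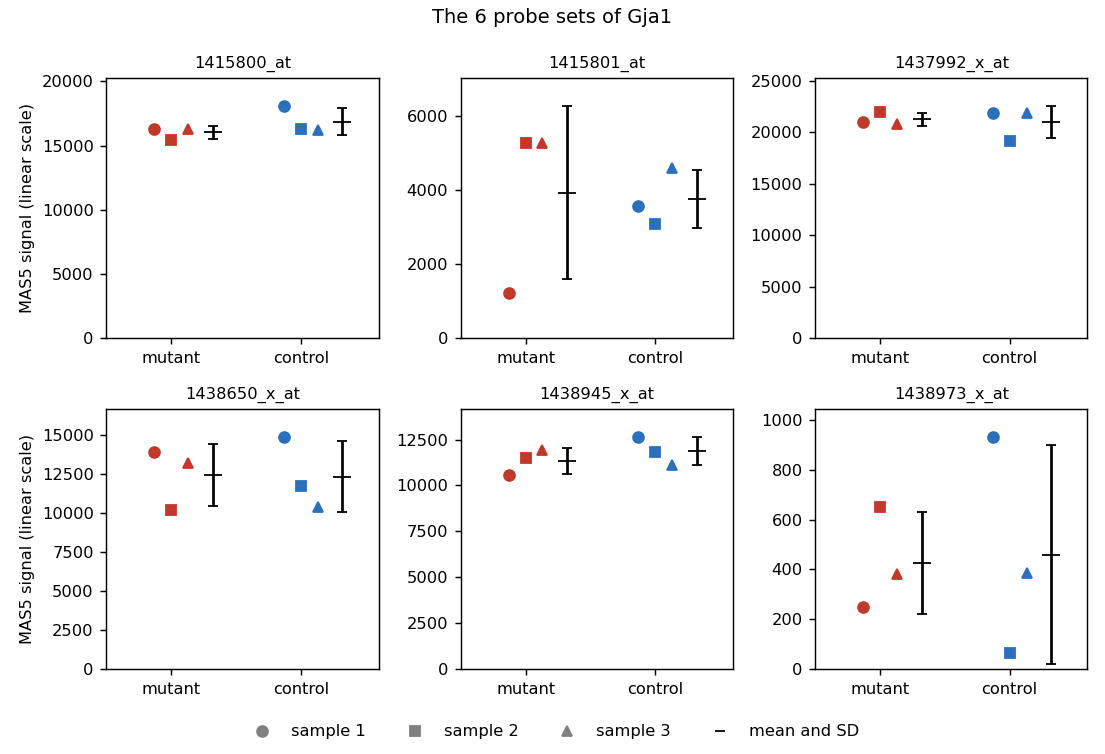
MAS5 signal (linear scale from 0) of each of the 6 Gja1 probe sets in the 3 mutant and 3 control samples, with the group mean and SD in black beside the points. The bright probe sets overlap closely between groups, while 1415801_at is lowest in mutant sample 1 at 1239 and 1438973_x_at spreads from 64.32 to 930.9 within the control group.

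Gjb2 was the member with the lowest p. Its signals were 5144, 5636 and 4500 in mutant samples 1, 2 and 3, against 5610, 6204 and 5599 in control samples 1, 2 and 3. Mutant samples 1 and 3 lay below all control samples, and mutant sample 2 lay inside the control range, so the groups overlapped. It averaged 5093 ± 570 over the mutant and 5804 ± 346 over the control samples (SD, n = 3 each). Its difference of -0.19 (SE 0.13) on the log2 scale corresponds to a fold of 0.875, with a 95% interval of 0.719 to 1.07, a limma p of 0.161 and an adjusted p of 1. Unlike Gjb5 and Gjb6, Gjb2 kept a like value without mutant sample 1, where the difference was -0.20 (limma adjusted p = 0.797). It was negative in every setting run, between -0.31 and -0.11. Its lowest adjusted p was 0.299, with array weights that, within the mutant group, rest mostly on mutant sample 3, its lowest sample. With these weights its difference was -0.31 (95% interval -0.53 to -0.082), with an unadjusted limma p of 0.0123. Its standard deviation was 11.2% of the mean in mutant and 5.96% in control samples.

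Gjb6 gave signals of 2034, 3352 and 2876 in mutant samples 1, 2 and 3, against 3376, 2681 and 2791 in control samples 1, 2 and 3. Mutant sample 1 was the lowest of the 6, and mutant samples 2 and 3 lay inside the control range. It averaged 2754 ± 667 over the mutant and 2949 ± 373 over the control samples (SD, n = 3 each). This is a log2 difference of -0.12 (95% interval -0.56 to 0.32, limma adjusted p = 1). Without mutant sample 1 the difference was 0.08 (-0.22 to 0.38). As folds, the interval with all 6 arrays ran from 0.68 to 1.24.

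Gjb5 was the least even of the genes with a single probe set. Its signals were 656.6, 1863 and 1236 in mutant samples 1, 2 and 3, against 1798, 1288 and 1346 in control samples 1, 2 and 3. The mutant group held both the lowest value, in sample 1, and the highest, in sample 2. It averaged 1252 ± 604 over the mutant and 1477 ± 279 over the control samples (SD, n = 3 each), with standard deviations of 48.2% and 18.9% of the mean. The log2 difference of -0.34 had a 95% interval of -1.08 to 0.40 (limma adjusted p = 1), so that a fold as low as 0.473 was within it. Without mutant sample 1 the difference was 0.06 (-0.39 to 0.50), and without mutant sample 2 it was -0.68 (-1.31 to -0.052), with an unadjusted limma p of 0.0371 and an adjusted p of 0.846. Leaving out mutant sample 1 thus turned its sign.

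**Figure D3:**
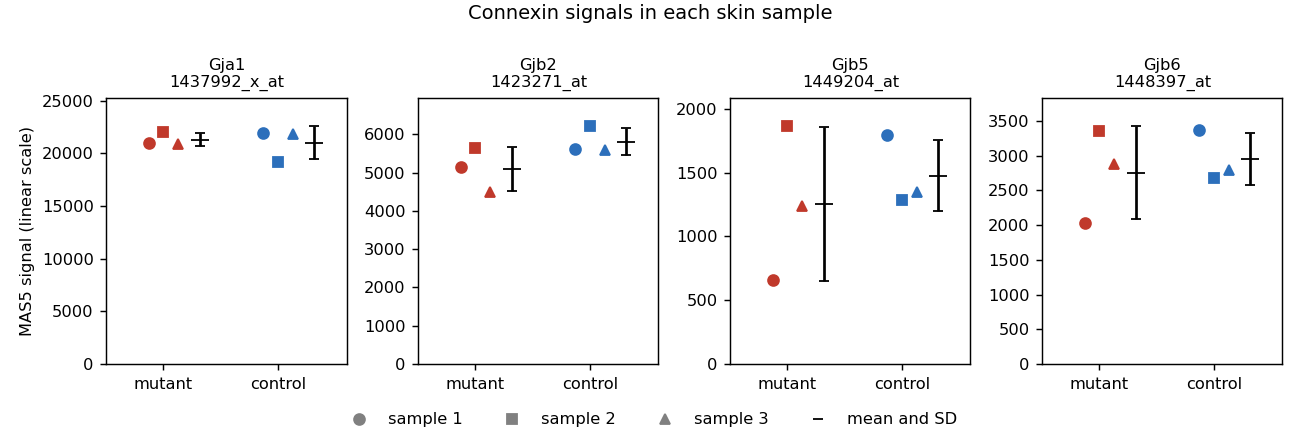
MAS5 signal (linear scale from 0) of the brightest probe set of each connexin in the 3 mutant and 3 control samples, with group mean and SD in black. Gjb5 (656.6) and Gjb6 (2034) are lowest in mutant sample 1, whereas Gja1 and Gjb2 are not.

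Gjb5 and Gjb6 followed the same profile over the arrays. Their log2 signals correlated at r = 0.985 over 6 arrays and at 0.943 over the 5 without mutant sample 1, although the genes lie on different chromosomes. Gjb2 correlated with Gjb5 at 0.344 and with its chromosomal neighbour Gjb6 at 0.191, and Gja1 with Gjb2 at -0.217 (6 arrays each). Arrays share their scaling and their tissue composition, and with so few points many genes reach a high r, so these values are descriptions.

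Among 11589 genes represented by their brightest probe set, those most like Gjb5 were Pla2g4f, a phospholipase, at r = 0.997, Gatad2a, a subunit of the NuRD chromatin complex, at 0.996, and Krt5, the keratin of basal keratinocytes, at 0.995. The signal of Krt5 was 11821, 22130 and 16961 in mutant samples 1, 2 and 3, against 21249, 18472 and 18352 in control samples 1, 2 and 3. As with Gjb5, the lowest and the highest of the 6 were mutant samples 1 and 2. Without mutant sample 1 the r of Gjb5 with Krt5 was 0.977. In mutant sample 1 Gjb5 stood at 48.8% and Gjb6 at 70.7% of the median of the other samples, beside 63.7% for the summed basal keratinocyte markers. The brightest genes in that sum are Krt5, Krt14 and Krt15. Of its 8 genes 6 were lowest in mutant sample 1, while Itga6 was highest there, at 110% of the median of the others. The suprabasal sum stood at 99.3% and the granular and cornified layer sum at 79.2%, both within the range of the other samples. The part of the low summed basal keratinocyte signal in the connexin values was not tested. In whole skin, fewer cells of a type and less RNA per cell cannot be told apart.

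The genes most like Gjb6 were Cdc25c, a phosphatase of mitotic entry (0.995), Mon1a, of vesicle traffic (0.992), and Stard10, a lipid transfer protein (0.991). For Gjb2 they were Adh6b, an alcohol dehydrogenase (0.984), the nuclear protein gene Jazf1 (0.983) and Dnajc2, a ribosome-associated chaperone (0.979). All 3 were lowest in mutant sample 3 and highest in control sample 2, like Gjb2 itself. For Gja1 they were Wdr91 (0.979), D130017N08Rik (0.97) and Mymk, the myoblast fusion protein myomaker (0.968), whose signals varied far more than the narrow range of Gja1.

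Of 13 other connexin and pannexin genes with a probe set, 4 passed the filter on low signal, namely Gjc1, Gja4, Gja3 and Panx1, and 0 of these 4 passed either threshold. The differences of all 4 were below 0, their median being -0.09 (log2), against -0.01 over all 11589 genes tested, but that of Panx1 lay at -0.0016 and was positive (0.02) after quantile normalization. Gjc1, a connexin of vascular smooth muscle and mesenchyme, averaged 1548 ± 145 over the mutant and 1666 ± 100 over the control samples (SD, n = 3 each), a difference of -0.11. Gja4, a connexin of arterial endothelium, was at 313 ± 25 in mutant and 333 ± 35 in control samples. Gja3, a lens connexin, was at 191 ± 49 in mutant and 250.5 ± 21.4 in control samples, a difference of -0.37 (limma adjusted p = 1). Panx1, which forms membrane channels for ATP release, averaged 405.8 ± 82.4 in mutant and 405.2 ± 77.2 in control samples.

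The other 9 genes, Gja5, Gja10, Gjb1, Gjc3, Gjd2, Gjd4, Gje1, Panx2 and Panx3, did not pass the filter. Gjb1, a connexin of liver, gland epithelium and myelin, differed in 1 library. Its probe set 1448767_s_at was at 164.8 in mutant sample 1 and at 5.683 and 3.746 in mutant samples 2 and 3, against 4.335, 2.959 and 3.425 in control samples 1, 2 and 3. The second probe set, 1448766_at, gave 122.4 in mutant sample 1 and at most 13.5 in the others. Gjb1 was thus above the background level in the library with the high decidual, uterine and smooth muscle signal, and near background elsewhere.

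**Figure D4:**
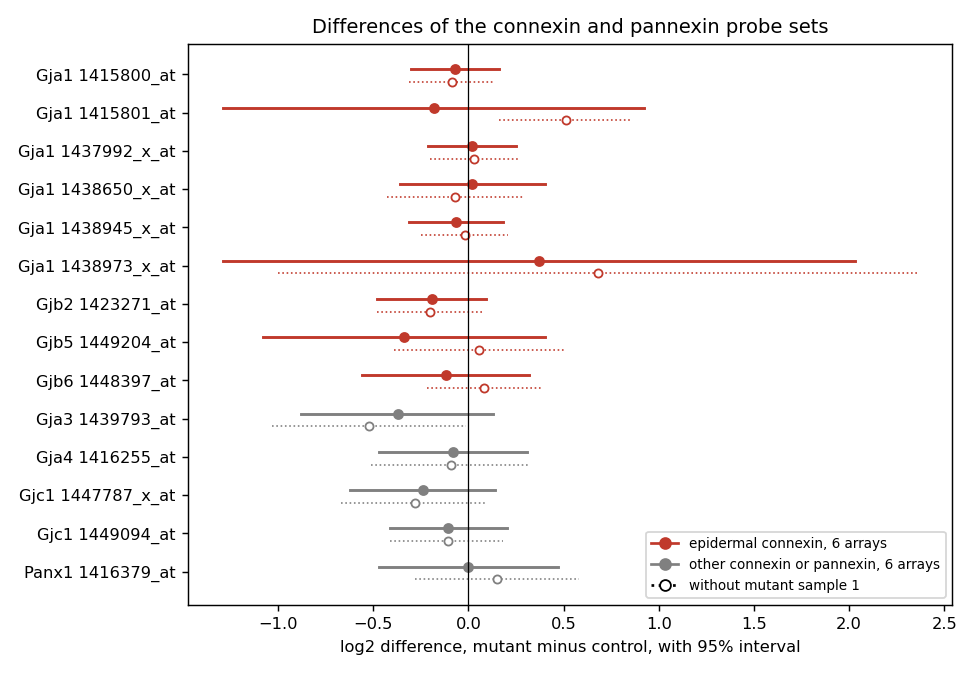
Log2 difference (mutant minus control) with its 95% limma interval for the 9 probe sets of the epidermal connexins (red) and the 5 probe sets of other connexins and pannexins past the filter (grey), with all 6 arrays (filled) and without mutant sample 1 (open, dotted). Every interval with 6 arrays includes 0, and 1415801_at, 1438650_x_at, Gjb5, Gjb6 and Panx1 change sign without mutant sample 1. Without that sample the intervals of 1415801_at and Gja3 exclude 0.

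Proteins that anchor, assemble or phosphorylate gap junctions were read as the setting of the connexins. Of 15 measured genes, all 15 passed the filter and 0 passed the adjusted threshold, 7 differences were positive and 8 negative, and the median was -0.03. 2 genes were higher at an unadjusted p under 0.05 and 0 lower, where 1.45% and 1.97% of all probe sets were. Cdh1, which encodes E-cadherin, whose adhesion precedes gap junction assembly, was at 4924, 5639 and 5650 in mutant samples 1, 2 and 3, against 4756, 4235 and 4207 in control samples 1, 2 and 3. Every mutant sample lay above every control sample, by a log2 difference of 0.29 (SE 0.12). It had an unadjusted limma p of 0.0366 and an adjusted p of 1. Over the settings run its difference lay between 0.26 and 0.36, and its lowest adjusted p was 0.186.

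Src, the tyrosine kinase that phosphorylates the Gja1 protein, gave 357.8, 358.6 and 400.1 in mutant samples 1, 2 and 3 and 250.4, 313.4 and 188.4 in control samples 1, 2 and 3 on the probe set 1450918_s_at. These groups did not overlap, with a difference of 0.55. It had an unadjusted limma p of 0.0262 and an adjusted p of 1. On its other probe set, 1423240_at, the groups overlapped, with mutant sample 1 the lowest of all at 59.3. Tjp1, the scaffold ZO-1 that binds the tail of the Gja1 protein, differed by 0.05, and its relative Tjp3 by 0.29. Mapk7, a kinase that can phosphorylate the Gja1 protein, differed by -0.57 (limma adjusted p = 1).

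Differentiation markers of the layers that hold these connexins were also read. The suprabasal list had 4 positive and 3 negative differences among 7 genes past the filter, with a median of 0.09. The 8 basal keratinocyte genes were negative on the probe sets that stood for them, with a median of -0.14, while a second probe set of Itga6 differed by 0.08. Without mutant sample 1, 3 of the 8 were negative and 5 positive, with a median of 0.01, and with array weights 6 were negative and 2 positive. The 11 granular and cornified layer genes were negative, with a median of -0.78, and 7 of them had an unadjusted p under 0.05. Over all probe sets tested, 55.6% were negative, and 1.97% were lower at an unadjusted limma p under 0.05. Of the 11, 9 were negative without mutant sample 1, with a median of -0.60, and 10 with array weights. After quantile normalization and after median centring these counts of negative genes were the same as without either. With all 6 arrays none of these genes passed the adjusted threshold. Flg, the filaggrin precursor, passed it without mutant sample 1, with a difference of -4.64 (limma adjusted p = 0.000512). Beside the granular median with all 6 arrays, the differences of the beta connexins were -0.19 for Gjb2, -0.12 for Gjb6 and -0.34 for Gjb5, and no test compared them with it.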

How the data were processed

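Total RNA of 6 skin samples, 3 mutant and 3 control by their titles, was purified on Qiagen columns and biotin-labelled with Affymetrix kits, per the labels' protocols. The authors deposited intensity values, MAS5 signals on a linear scale, per the submitters' processing notes (version not given in the sources used here). The trimmed mean (2% cut at each end) was 500 in each column.

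Signals were analysed as log2(signal + 24.48), with the 20th percentile of all values as the pseudocount, so folds of dim probe sets are understated. Of 45101 probe sets, 64 Affymetrix controls were left out, and probe sets with a mean log2 above the median were kept (22518). Names came from the platform annotation, updated by gene identifier (34958 probe sets with 1 symbol, 932 with several, 9211 with none). The probe set with the highest mean stood for a gene. The mutant minus control difference of each probe set was tested in limma 3.58.1 and R 4.3.3 (lmFit, eBayes with trend, two-sided, Benjamini-Hochberg over all probe sets tested), after a test on simulated data. An exact two-sided permutation test of 3 against 3 samples cannot go below p = 0.1, and it gave 0.3 or more for each connexin probe set.

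The text names all probe sets of the 4 connexins, other connexins and pannexins past the filter, the 4 gap junction partners with the smallest p plus Tjp1, and the 3 genes of highest Pearson r with each connexin. Gjb1 was singled out after its values were seen. Members and lists were chosen with earlier results of these data known. Same-numbered mutant and control samples had correlated deviations of -0.0525, -0.0735 and 0.115, so replicate numbers were not taken as pairs. The other settings were other pseudocounts, filters, normalizations, variance models, array weights, a replicate block, each sample left out, and the mean over probe sets of a gene.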

Additional observations from a re-analysis of the deposited data

How the results depend on the processing

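No connexin probe set passed an adjusted p of 0.05 in any of the 138 values under other settings, where the lowest adjusted p was 0.299, and 12 of those values had the opposite sign to that with all 6 samples. With quantile normalization the Gja1 difference was -0.0087. The Gja1 probe set 1415801_at was at 0.39 with array weights. With 1 sample left out the ranges were -0.042 to 0.053 for Gja1, -0.27 to -0.11 for Gjb2, -0.68 to 0.055 for Gjb5 and -0.28 to 0.081 for Gjb6. For the other Gja1 probe sets that changed sign they were -0.53 to 0.51 for 1415801_at, -0.096 to 0.16 for 1438650_x_at and -0.57 to 1.15 for 1438973_x_at. Gjb5, Gjb6, 1415801_at and 1438650_x_at changed sign without mutant sample 1. Panx1 was at 0.018 with quantile normalization and 0.064 with array weights, and ranged from -0.13 to 0.15 with 1 sample left out, as Tjp1 did from -0.0018 to 0.13. Probe sets past the threshold over the whole array numbered 1, against 106 with array weights, 8 with the replicate number as a block, 0 with the filter at the 70th percentile and 2 with the mean over the probe sets of a gene. They numbered 1 to 39 with 1 sample left out, the highest being without mutant sample 1. The count was 3 without control sample 2. The block changed no connexin call, and the sharing of numbers is not shown to pair the samples. The causes of these changes were not tested. The stricter filter removed 1438973_x_at and the probe sets that stood for Gja4, Gja3, Src and Mapk7. With it the partners and kinases past the filter fell from 15 to 12.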
